A study of Mus musculus with 24 samples.

Results

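The Trk and Ret receptor genes examined here were Ntrk2 and Ntrk3, which encode the neurotrophin receptors TrkB and TrkC, Ret, which encodes the receptor tyrosine kinase of the GDNF family ligands, and Gfra1, Gfra2 and Gfra3, which encode the GFRα proteins. They were found by gene name among the gene probes of the arrays. They are 6 of the 37074 gene names on the arrays and had 12 of the 56605 gene probes, and 11 of these 12 passed the filter for dim probes. Each gene was followed through its brightest probe over the 24 arrays, and all 6 of these main probes passed the filter. RNA was taken from L4 to L6 nerve fibres of C57BL/6 mice, for which the labels name no treatment, and the efferent nerve fibres (EN, ventral root) were compared with the afferent nerve fibres (AN, dorsal root) at P0 (newborn), 1W, 3W and 5W (1, 3 and 5 weeks of age). Each of the 8 groups had 3 one-colour Agilent arrays, and the number of arrays limits the precision of every value. The study used 9 animals per time point, of both sexes, in 3 independent experiments, but the labels do not tie an array to particular animals, so p values measure only the spread between these samples, which may be technical. A root sample holds axons, Schwann cells and other cells of the root, so that fewer cells of a type and less RNA per cell cannot be told apart.

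Neurotrophins are secreted proteins that keep neurons alive and guide the growth of their axons. BDNF acts through TrkB and NT-3 through TrkC, receptors that cross the membrane and carry a tyrosine kinase on the inner side. Both genes also give shorter transcripts that encode receptors without the kinase, and the short TrkB is well known from glial cells. The GDNF family ligands act differently, because each is first caught by a GFRα protein that is anchored to the outer face of the membrane, and the pair then engages Ret. GFRα1 prefers GDNF, GFRα2 neurturin and GFRα3 artemin. In the peripheral nervous system TrkC is known from proprioceptive neurons, Ret with its co-receptors from nociceptive and other sensory neurons as well as motor neurons, and GFRα1 also from Schwann cells.

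Because the probes of Ntrk2 and Ntrk3 do not all read the same transcripts, the coding probes of both genes are shown here, 5′ to 3′ in the sense direction. The probe used for Ntrk2 (mm9, chr13:58979563-58979622, plus strand) lies in the part shared by the long and the short transcripts, over the membrane-spanning segment. A further Ntrk2 probe, 251.3 kb downstream (chr13:59230936-59230995), is listed in the scanner files under full-length transcripts but not under the short one. For Ntrk3, the main probe (mm9, chr7:85337455-85337514, minus strand) lies near the 3′ end of the kinase coding sequence and is listed under the kinase transcript but not the short one. The short-form probe (chr7:85447515-85447574) ends in the stop codon of the transcript without a kinase, and the membrane-segment probe (chr7:85595783-85595842) is shared by both forms. Capitals mark that stop codon.
Ntrk2, both forms: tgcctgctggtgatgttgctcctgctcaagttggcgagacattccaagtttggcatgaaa
Ntrk3, kinase form: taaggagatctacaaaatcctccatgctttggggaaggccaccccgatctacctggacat
Ntrk3, short form: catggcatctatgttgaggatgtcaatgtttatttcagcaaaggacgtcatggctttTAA
Ntrk3, both forms: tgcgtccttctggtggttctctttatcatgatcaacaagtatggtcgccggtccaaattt

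Array by array, the median spot signal ranged from 45.4 to 191 and the local background from 23 to 46, with 55.1% to 71.7% of gene spots well above background. All 3W arrays lay on 1 slide of 1 scan batch, which held no P0 or 1W array. Their median signals were 51.4 to 73.5, against 122 to 191 on the P0 arrays. Changes from P0 or 1W to 3W therefore cannot be told apart from slide or scan. Schwann cell markers were bright on every array (10 of 10 genes above background, mean log2 signal 14.51 to 16.31). The sensory neuron list (13 genes) and the neuronal axon list (9 genes) varied widely with nerve and age. EN arrays held sensory markers as well: 9 to 13 of the 13 sensory genes were above background on each EN array. None of the 4 tested motor neuron markers was called higher in EN at any age, and 1 was called higher in AN at 1W. A single array stood apart. The third array of 3W AN had a mean sensory marker level of 12.26 against 9.12 and 8.77 on the other 2 arrays of its group, and an axon marker level of 16.02 against 12.26 and 11.78. Its weight in a fit with array quality weights was 0.216. Receptor comparisons with 3W AN are therefore given with and without it. Another spread was found in 5W AN, whose 3 arrays had mean sensory marker levels of 10.18, 9.29 and 7.18.

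At 1W, 4 of the 6 receptor genes were higher in AN than in EN: Ret 11.7-fold, Gfra3 5.53-fold, Gfra2 2.01-fold and Ntrk2 1.45-fold. At 3W, Gfra3 (4.03-fold, 2.48-fold without the third 3W AN array), Gfra2 (2.61-fold, 2.35-fold without it), Ntrk3 (2.33-fold, 1.66-fold without it) and Ntrk2 (1.30-fold, not called without it) were higher in AN, and at 5W Gfra3 (2.92-fold), Gfra2 (2.27-fold) and Ntrk2 (1.56-fold). None was called lower in AN in this fit. A fit with the AN and EN arrays of 1 age and number as a block also called Gfra1 at 1W, lower in AN. Higher in AN, it also called Ntrk2 and Gfra2 at P0, Ntrk3 at 1W and 5W, and Ret at 3W. The share of all tested probes called with that block is not given here. The call rule was a Benjamini-Hochberg adjusted p under 0.05 over the 36409 tested probes in limma, and by it 11 of 24 tests were called, all of them higher in AN. Of all tested probes, P0 had 0.739% called, 1W 4.00%, 3W 5.89% and 5W 6.76%. At P0, 0 of the 6 genes were called by limma, while 3 had an unadjusted p under 0.05, and the AN arrays lay apart from the EN arrays in 5 of the 6. No share over all tested probes is given for counts at an unadjusted p or of arrays lying apart, here or below. Such counts are therefore not read as a difference. Leaving out the third 3W AN array gave 13 of 24 calls. Gfra3 at P0 and Ntrk3 at 1W and 5W gained a call, and Ntrk2 at 3W lost its call. That fit called 3.43% of all tested probes at 3W, and its shares at the other ages are not given.

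**Figure D1:**
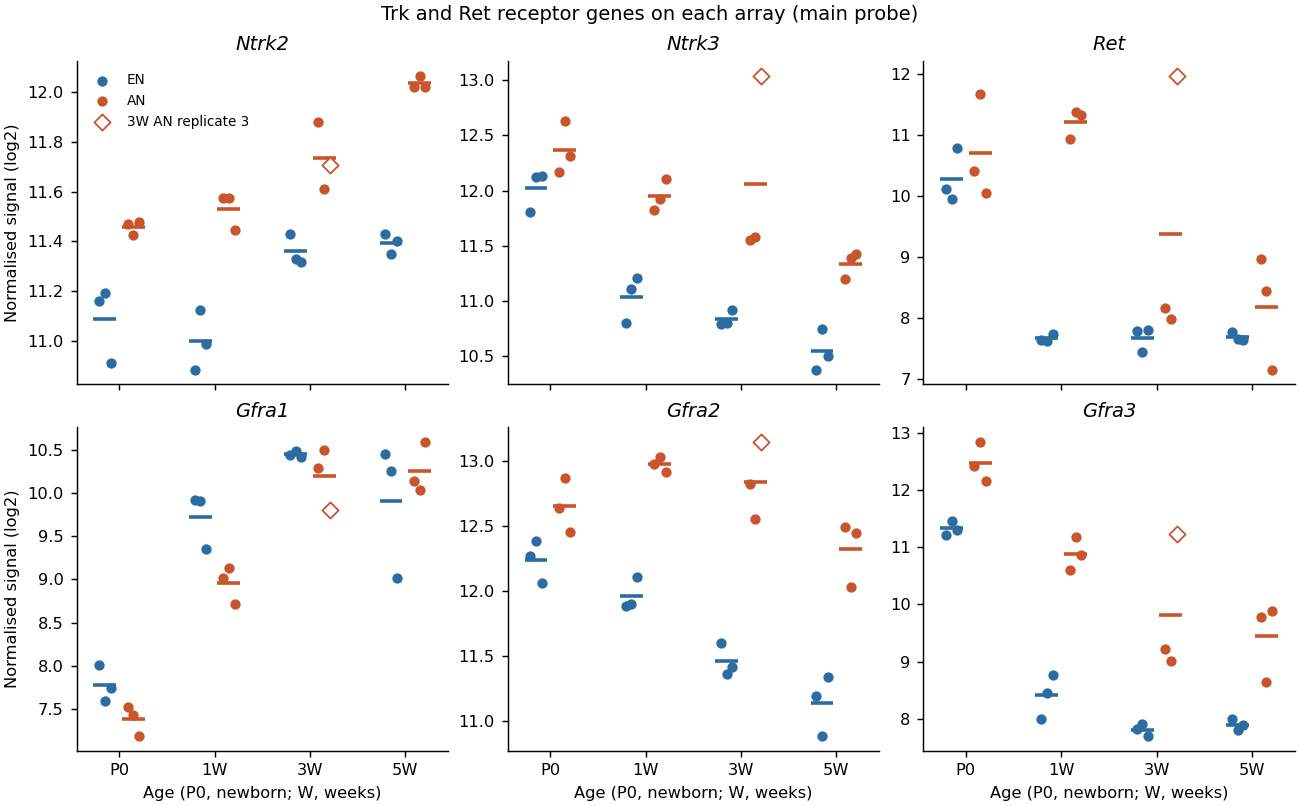
Normalised log2 signal of the main probe of the 6 receptor genes on each of the 24 arrays, by age, in EN (blue) and AN (orange). Points are arrays, short lines are group means, and the open diamond is the third 3W AN array, at 11.98 for Ret against 8.17 and 8.00 on the other 3W AN arrays; Gfra1 is lowest at P0 in both nerves.

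**Figure D2:**
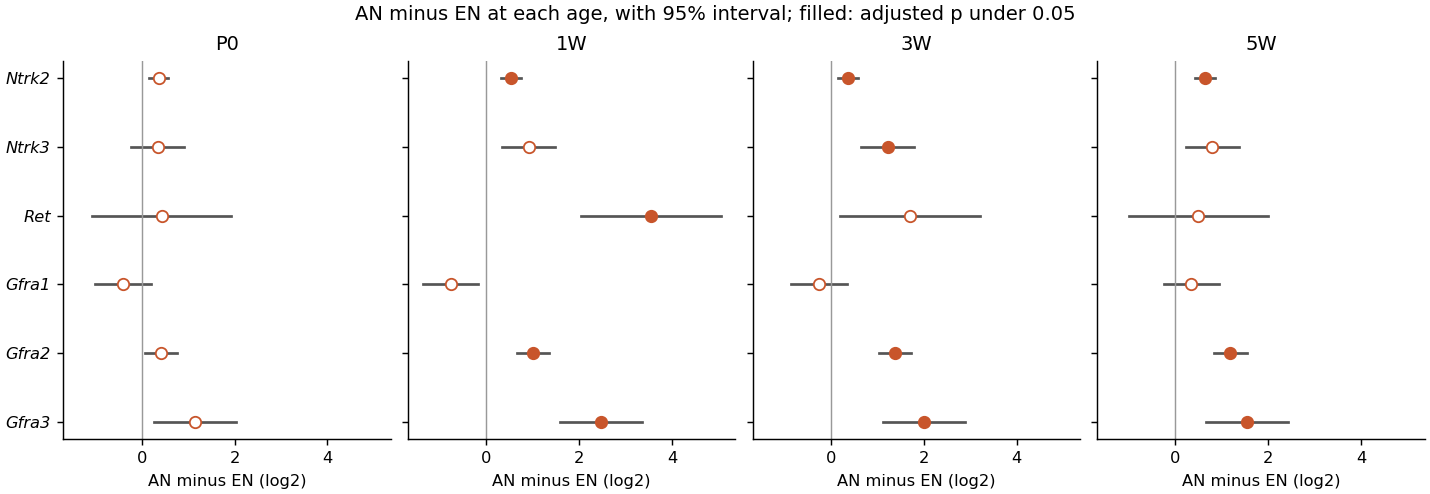
AN minus EN in log2 units for the 6 genes at each age, from limma over all 24 arrays. Lines are 95% intervals, filled points have an adjusted p under 0.05, and the filled points (11 of 24) all lie to the right of 0.

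Ntrk2, read by the probe of both forms, had log2 signals of 11.16, 11.19 and 10.91 in P0 EN and of 11.47, 11.43 and 11.48 in P0 AN. The 1W signals were 10.89, 11.12 and 10.99 for EN and 11.57, 11.57 and 11.45 for AN. The 3W signals were 11.43, 11.33 and 11.32 for EN and 11.88, 11.61 and 11.71 for AN, and at 5W they were 11.43, 11.35 and 11.40 for EN against 12.02, 12.06 and 12.02 for AN. All 3 AN arrays lay above all 3 EN arrays at every age. The AN-EN difference of Ntrk2 was 0.37 ± 0.10 (log2, SE) at P0 (adjusted p = 0.118), 0.53 ± 0.10 at 1W (adjusted p = 0.00568), 0.37 ± 0.10 at 3W (adjusted p = 0.033) and 0.64 ± 0.10 at 5W (adjusted p = 0.000587). Without the third 3W AN array the 3W difference was 0.39 with an adjusted p of 0.0658, which ended the call. With the AN and EN arrays of 1 age and number as a block, the P0 difference of Ntrk2 was also called (adjusted p = 0.00355). Ntrk2 rose slightly with age, by 0.27 in EN and 0.28 in AN (0.29 without the third 3W AN array, adjusted p = 0.0385) from P0 to 3W and by 0.30 and 0.58 to 5W (adjusted p = 0.0282, 0.0277, 0.0153 and 9.35e-05), whereas no change to 1W was called (-0.09 in EN, adjusted p = 0.548, and 0.07 in AN, adjusted p = 0.662). In the order of group means, 5W AN was highest and 1W EN lowest, and only 1 pair of neighbours in that order, 3W EN and P0 EN, passed the test. Astrocyte markers stood beside Ntrk2 as follows: the mean of the 6 listed genes was 9.12 to 9.61 in 5W EN and 10.28 to 11.03 in 5W AN, 3 of 6 were called higher in AN at 1W and 3 of 6 at 5W but 0 of 6 by limma at P0 and at 3W (median differences 0.05 and 0.66, with 0 and 4 of 6 at an unadjusted p under 0.05), and over the 24 arrays its Pearson r with Ntrk2 was 0.827. In the oligodendrocyte list, 0, 2, 0 and 2 of 5 genes were called higher in AN at P0, 1W, 3W and 5W. Its Pearson r with Ntrk2 was 0.683. The points share nerve and age, and the part of the astrocyte or oligodendrocyte markers in the Ntrk2 difference was not tested.

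The full-length probe of Ntrk2 followed another course. It gave 7.98, 8.41 and 8.21 in P0 EN, 4.14, 4.63 and 6.03 in 1W EN, 5.20, 4.87 and 5.12 in 3W EN and 3.33, 4.29 and 4.58 in 5W EN. In AN it gave 8.66, 9.01 and 8.18 at P0, 7.83, 7.51 and 8.40 at 1W, 7.44, 7.54 and 9.07 at 3W and 7.26, 8.82 and 6.71 at 5W. EN arrays were thus low from 1W on, and AN arrays were not. Neuronal markers ran with this probe over the 24 arrays (Pearson r 0.856 with the sensory list and 0.849 with the motor neuron list), and 8 of 13 sensory and 2 of 4 motor neuron markers were lower in 1W EN than in P0 EN. Their part in its values was not tested. The probe was well above background on all AN arrays but on only 1 of 3 EN arrays at 1W, 1 of 3 at 3W and 0 of 3 at 5W. Its AN-EN difference was 0.42 ± 0.54 at P0 (adjusted p = 1), 2.98 ± 0.54 at 1W (adjusted p = 0.00485), 2.95 ± 0.54 at 3W (adjusted p = 0.00269) and, at 5W, at least 5.87-fold (adjusted p = 0.000464). Its 3W value was 2.42 without the third 3W AN array (adjusted p = 0.0185). In EN the full-length signal fell from P0, with changes of -3.26 to 1W and -3.13 to 3W (adjusted p = 0.000235 and 8.34e-05), and 5W EN was at least 8.91-fold lower than P0 EN (adjusted p = 3.33e-06). In AN no change since P0 was called (1W -0.70, 3W -0.60, or -1.13 without the third 3W AN array, and 5W -1.02, adjusted p = 0.393, 0.366 and 0.122). The change of the AN-EN difference since P0 was not called without the pair block (2.56 ± 0.76 at 1W and 2.53 ± 0.76 at 3W, with 1 of 3 EN arrays above background at each, and no exact size at 5W; adjusted p = 0.275, 0.182 and 0.0529). Leaving out the third 3W AN array gave 2.01 at 3W (adjusted p = 0.351) and an adjusted p of 0.0279 at 5W. With the pair block it was called at all 3 ages (adjusted p = 0.0182, 0.0105 and 0.00181).

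The 2 Ntrk2 probes therefore moved apart. The signal of the full-length probe relative to the probe of both forms was taken on each array, and only its change between groups is read, since levels of different probes are not comparable. Averaged over the 4 ages, this relative signal was higher in AN than in EN by 1.99 log2 units as measured (1.86 without the third 3W AN array). The difference was 1.69 with the 7 dim values, all in EN, raised to the lowest signal well above background on their arrays. At P0 the group means hardly differed (-2.84 in AN and -2.89 in EN). They lay apart at 1W (-3.62 and -6.07), 3W (-3.72 and -6.29) and 5W (-4.44 and -7.33). The 3W AN arrays had -4.44, -4.07 and -2.64, and no 5W EN array was above background. The exact permutation test, with AN and EN exchanged within the 12 pairs of the same age and number, gave a two-sided p of 0.00195 (adjusted p = 0.00781 over 8 tests) for the values as measured. This test pooled the 4 ages, P0 included, and was added after the 2 probes had been seen to part. Against P0, over both nerves, the relative signal differed by -1.98 at 1W, -2.14 at 3W (-2.41 without the third 3W AN array) and -3.02 at 5W (-1.87, -2.13 and -2.53 with the dim values raised). With pairs as units the smallest p that exact permutation allows for an age is 0.1, so these differences stand as values without a call.

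Ntrk3, read by the kinase-form probe, had log2 signals of 11.81, 12.13 and 12.14 in P0 EN and of 12.17, 12.63 and 12.31 in P0 AN. At 1W it had 10.80, 11.11 and 11.21 in EN and 11.82, 11.93 and 12.11 in AN. At 3W it had 10.79, 10.80 and 10.92 in EN and 11.55, 11.58 and 13.04 in AN, and at 5W 10.38, 10.75 and 10.50 in EN against 11.20, 11.39 and 11.43 in AN. The AN arrays were above the EN arrays at every age, and the 13.04 belongs to the array that stood apart. The difference was called at 3W only (1.22 ± 0.27, adjusted p = 0.0111; 0.73 without that array, adjusted p = 0.0161). At 1W it was 0.91 ± 0.27 (adjusted p = 0.0684) and at 5W 0.80 ± 0.27 (adjusted p = 0.0876). Both were called without the third 3W AN array (adjusted p = 0.000487 and 0.00192) and with the pair block (adjusted p = 0.00388 and 0.00643). In EN, Ntrk3 fell from P0 on, with changes of -0.98 to 1W, -1.19 to 3W and -1.48 to 5W (adjusted p = 0.011, 0.00117 and 0.000143). In AN it fell by 1.03 to 5W (adjusted p = 0.00369), and the changes to 1W (-0.42, adjusted p = 0.304) and 3W (-0.31, adjusted p = 0.351) were called only without the third 3W AN array (-0.42 and -0.80, adjusted p = 0.0439 and 0.000539). Ntrk3 ran alike with the sensory, motor neuron and axon lists over the 24 arrays (Pearson r 0.876, 0.874 and 0.876), and the part of neuronal RNA in its values was not tested. In the order of its 8 group means no pair of neighbours passed the test.

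The short form of Ntrk3 did not share this course. Its AN and EN arrays overlapped at every age (largest difference 0.35 ± 0.37 at 5W, adjusted p = 0.648), with 11.42, 11.34 and 11.53 in 3W EN and 11.94, 11.88 and 11.36 in 3W AN. The short form was lower at 1W than at P0 in AN (fell by 1.13, adjusted p = 0.0366) and, with the pair block only, in EN (-0.99, adjusted p = 0.0374, against 0.0549 without the block). Its P0 and 1W arrays overlapped in both nerves. The first P0 array and the first and second 1W arrays of each nerve came from another scan batch than the rest of their groups. They were the lowest of their groups, and the part of scan batch in this fall is not given here. From 1W to 3W the short form rose in AN (1.06, adjusted p = 0.0382, or 1.25 and adjusted p = 0.0288 without the third 3W AN array). The membrane-segment probe shared by both forms also showed no called AN-EN difference (0.21 to 0.42). Its 3W arrays likewise overlapped only through the third 3W AN array (0.35 without it, adjusted p = 0.735). Averaged over the 4 ages, the kinase-form signal relative to the short-form signal was 0.56 higher in AN than in EN (0.39 without the third 3W AN array). Exact permutation within the 12 pairs, pooled over the ages, gave a two-sided p of 0.00146 (adjusted p = 0.00781 over 8 tests). The group means of AN and EN were 0.58 and 0.49 at P0 and 1.29 and 0.50 at 1W. They were 0.33 and -0.59 at 3W and -0.01 and -0.46 at 5W, and the 3W AN arrays had -0.38, -0.30 and 1.68. Against P0, over both nerves, this relative signal differed by 0.36 at 1W, -0.66 at 3W (-1.0 without the third 3W AN array) and -0.77 at 5W, and again no age could pass with pairs as units. A further, dim probe of Ntrk3 (log2 signal 5.29 to 7.02) gave no called difference between AN and EN or against P0.

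**Figure D3:**
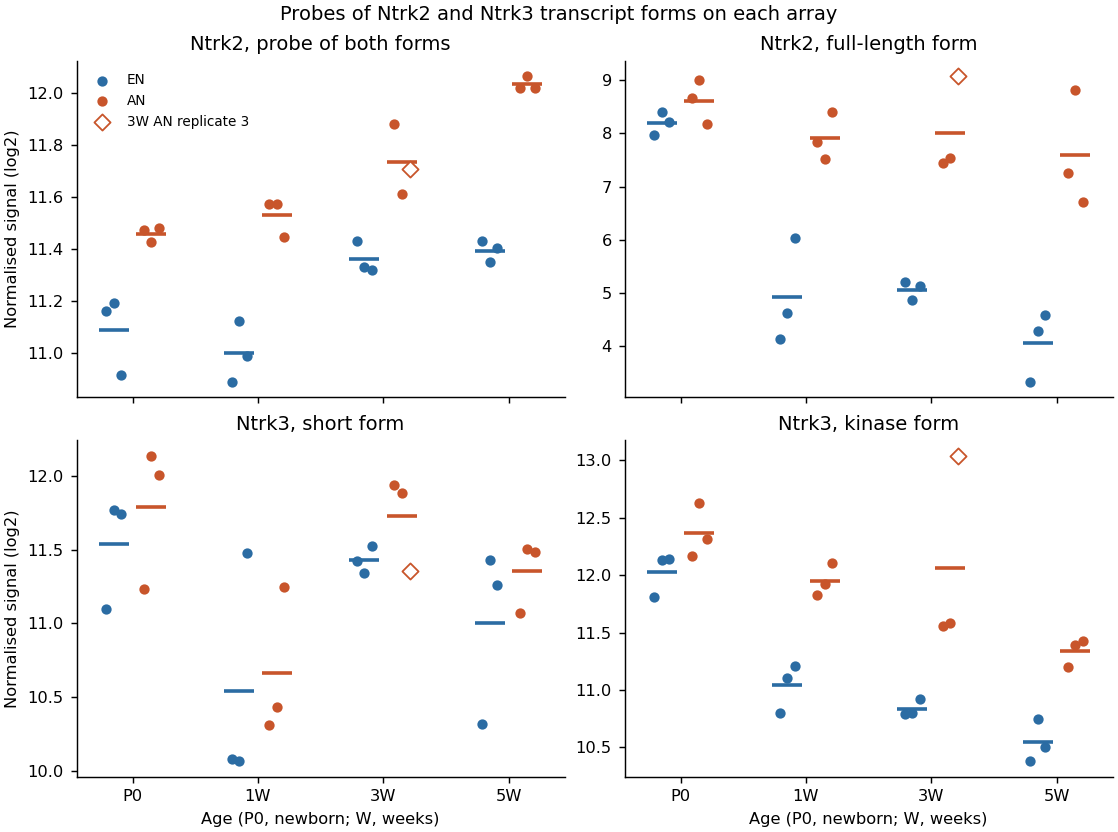
Normalised log2 signal on each array of the Ntrk2 probe of both forms and the full-length Ntrk2 probe (top) and of the short-form and kinase-form Ntrk3 probes (bottom), by age in EN (blue) and AN (orange), with group means as lines and the third 3W AN array as an open diamond. The full-length Ntrk2 probe lies at 3.33 to 6.03 on the EN arrays from 1W on and at 6.71 to 9.07 on the AN arrays of these ages. The AN and EN arrays of the short Ntrk3 form overlap, at 3W only through the open diamond.

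Ret, the shared signalling receptor of the GDNF family (probe at chr6:118101791-118101850, minus strand), gave 10.12, 9.95 and 10.79 in P0 EN and 10.41, 11.67 and 10.06 in P0 AN, which overlapped. At 1W the nerves were far apart, with 7.64, 7.63 and 7.75 in EN and 10.94, 11.39 and 11.33 in AN. At 3W EN had 7.79, 7.44 and 7.80, and AN had 8.17, 8.00 and 11.98. At 5W EN had 7.78, 7.67 and 7.65, and AN had 8.97, 8.45 and 7.16, which overlapped again. Ret therefore fell in EN between P0 and 1W, by 2.61 ± 0.71 (adjusted p = 0.0108), with no further step (0.00 from 1W to 3W and 0.02 from 3W to 5W), while in AN it was 0.50 higher at 1W than at P0 (adjusted p = 0.678) and lower at 5W (-2.52, adjusted p = 0.0064). The difference between AN and EN was 3.55 ± 0.71 at 1W (adjusted p = 0.00776), 1.70 ± 0.71 at 3W (adjusted p = 0.187) and 0.50 ± 0.71 at 5W (adjusted p = 0.756).

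The 3W AN value of Ret rested on 1 array. Without it, the change from P0 AN to 3W AN was -2.63 (adjusted p = 8.45e-05) rather than -1.34 (adjusted p = 0.126), the step from 1W AN was -3.14 (adjusted p = 5.66e-05) rather than -1.84 (adjusted p = 0.0596), and the AN-EN difference at 3W was 0.41 (adjusted p = 0.725). The growth of the AN-EN difference from P0 to 1W was 3.12 ± 1.01, with an adjusted p of 0.334 over all arrays, of 0.00881 without that array and of 0.0378 with the pair block. With the pair block the 3W difference was called too (adjusted p = 0.0376), in a fit that held the third 3W AN array. The pair of that array differed by 4.17, against 0.38 and 0.55 in the other 3W pairs. No value with the pair block and without that array is given. Ret ran with the sensory neuron and axon lists over the 24 arrays (Pearson r 0.961 and 0.982), and in P0 AN, 3W AN and 5W AN the array highest in sensory markers was also highest in Ret. The sensory list lay at 7.05 to 8.36 in 1W EN and at 10.98 to 11.29 in 1W AN, with 9 of 13 genes called higher in AN, and 8 of 13 fell in EN from P0 to 1W. The part of neuronal RNA in the Ret values was not tested.

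Gfra3, the co-receptor for artemin, was 11.22, 11.47 and 11.30 in P0 EN and 12.43, 12.84 and 12.16 in P0 AN. At 1W it was 8.00, 8.45 and 8.77 in EN and 10.60, 11.17 and 10.86 in AN. At 3W it was 7.82, 7.91 and 7.70 in EN and 9.22, 9.01 and 11.23 in AN, and at 5W 7.99, 7.80 and 7.88 in EN and 9.78, 8.65 and 9.89 in AN. AN was above EN on every array at every age, and both nerves were highest at P0. The difference was 1.14 ± 0.42 at P0 (adjusted p = 0.366; 0.049 without the third 3W AN array), 2.47 ± 0.42 at 1W (adjusted p = 0.0038), 2.01 ± 0.42 at 3W (adjusted p = 0.00786; 1.31 and adjusted p = 0.0203 without that array) and 1.55 ± 0.42 at 5W (adjusted p = 0.0313). Gfra3 fell in all 6 comparisons with P0, with changes of -2.92, -3.52 and -3.44 in EN and -1.60, -2.66 and -3.04 in AN at 1W, 3W and 5W, the 3W AN value being -3.36 without the third 3W AN array (largest adjusted p = 0.0101). The step from 1W to 3W in AN was -1.06 (adjusted p = 0.0654) and was called without the third 3W AN array (-1.76, adjusted p = 0.000331). Gfra3 ran alike with the sensory, motor neuron and axon lists over the 24 arrays (Pearson r 0.836, 0.857 and 0.848). However, the 5W AN array lowest in the sensory list, at 7.18, was the highest of its group in Gfra3, at 9.89. The part of neuronal RNA in the Gfra3 values was not tested.

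Gfra2, the co-receptor for neurturin (probe at chr14:71379586-71379645, plus strand), was 12.27, 12.38 and 12.06 in P0 EN and 12.64, 12.87 and 12.45 in P0 AN. At 1W it was 11.88, 11.89 and 12.10 in EN and 12.97, 13.02 and 12.91 in AN. At 3W it was 11.60, 11.36 and 11.41 in EN and 12.82, 12.55 and 13.14 in AN, and at 5W 11.19, 10.88 and 11.34 in EN and 12.49, 12.03 and 12.44 in AN. AN was above EN on every array, by 0.42 ± 0.17 at P0 (adjusted p = 0.462; 0.0301 with the pair block), 1.01 ± 0.17 at 1W (adjusted p = 0.0032), 1.38 ± 0.17 at 3W (adjusted p = 6.62e-05; 1.23 and adjusted p = 0.00041 without the third 3W AN array) and 1.19 ± 0.17 at 5W (adjusted p = 0.000214). In EN, Gfra2 fell since P0, with changes of -0.78 to 3W and -1.10 to 5W (adjusted p = 0.000684 and 1.96e-05), while no change since P0 was called in AN (0.32, 0.18 and -0.33, adjusted p = 0.191, 0.368 and 0.106; 0.03 at 3W without the third 3W AN array). The AN-EN difference was 0.59, 0.96 and 0.77 larger at 1W, 3W and 5W than at P0. These changes were not called over all arrays without the pair block (adjusted p = 0.503, 0.0786 and 0.146; 0.81 and adjusted p = 0.154 at 3W without the third 3W AN array) and were called with it (adjusted p = 0.0395, 0.00107 and 0.00422). Gfra2 ran with the sensory, motor neuron and axon lists over the 24 arrays (Pearson r 0.801, 0.713 and 0.720), and the part of neuronal RNA in its values was not tested. A further Gfra2 probe was near background in all groups and was not tested.

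Gfra1, the co-receptor for GDNF (probe at chr19:58311604-58311663, minus strand), ran the other way. It was 8.01, 7.59 and 7.74 in P0 EN and 7.53, 7.43 and 7.19 in P0 AN, and 9.92, 9.90 and 9.35 in 1W EN and 9.02, 9.14 and 8.72 in 1W AN. At 3W it was 10.44, 10.48 and 10.42 in EN and 10.29, 10.50 and 9.80 in AN, and at 5W 10.44, 10.26 and 9.02 in EN against 10.13, 10.03 and 10.59 in AN. The P0 arrays of both nerves were the lowest and the nerves overlapped from 3W on by this probe. At 5W its AN-EN difference was 0.34 and was not called. The 5W pairs differed by -0.31, -0.23 and 1.57, the last with the third 5W EN array at 9.02. Gfra1 rose since P0 by 1.94, 2.66 and 2.13 in EN and by 1.58, 2.81 (3.01 without the third 3W AN array) and 2.87 in AN (largest adjusted p = 0.000606), which is 2.98-fold to 7.31-fold. It rose further from 1W to 3W in AN, by 1.24 (adjusted p = 0.00321; 1.44 and adjusted p = 0.00204 without the third 3W AN array), and the same step in EN was 0.72 (adjusted p = 0.067). EN was above AN by 0.76 at 1W with no overlap (AN-EN -0.76 ± 0.28, adjusted p = 0.184), which was called with the pair block (adjusted p = 0.0396). A second Gfra1 probe gave rises of 1.13 to 2.56 in the same 6 comparisons, all called. On the third 5W EN array that second probe read 10.36. By that probe AN was lower than EN in all 12 pairs of the same age and number (-0.77 to -0.14), with no overlap at P0, 1W and 3W, and although no AN-EN difference was called without the pair block, 1W (-0.60, adjusted p = 0.00633) and 3W (-0.44, adjusted p = 0.0263; -0.24 without the third 3W AN array and without the block) were called with it. Schwann cell markers mostly rose with Gfra1. Against P0, 6, 7 and 8 of 10 were called higher in EN at 1W, 3W and 5W, and 1 lower at each age. In AN 7, 7 (8 without the third 3W AN array) and 9 of 10 were called higher, and 0, 0 and 1 lower. Of all tested probes, 27.1%, 55.0% and 54.1% were called in either direction in EN and 21.7%, 51.7% and 50.6% in AN. Of the 9864, 20029 and 19715 probes called in EN, 5657, 10546 and 10250 were called higher. Of the 7896, 18841 and 18415 called in AN, 4493, 9767 and 9618 were called higher. The mean of the Schwann cell list had a Pearson r of 0.933 with Gfra1 over the 24 arrays. The part of the Schwann cell RNA in the Gfra1 rise was not tested.

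**Figure D4:**
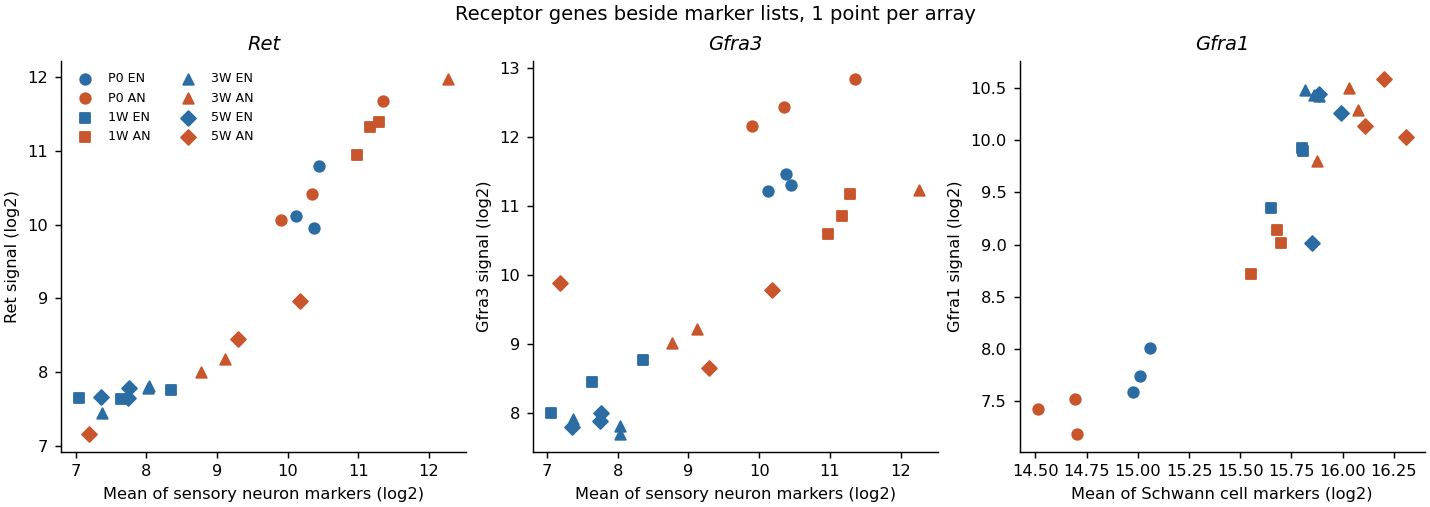
Log2 signal of Ret, Gfra3 and Gfra1 on each array (vertical) against the mean log2 signal of a marker list on the same array (horizontal), with colour for the nerve and symbol for the age. Ret rises with the sensory list (Pearson r = 0.961), Gfra3 less closely (0.836), with 1 5W AN array high in Gfra3 and low in the list, and Gfra1 rises with the Schwann cell list (0.933).

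Over all comparisons with P0, 26 of 36 tests of the 6 genes were called, 10 as rises and 16 as falls. In EN, 4, 6 and 6 of the 6 genes were called at 1W, 3W and 5W, while 27.1%, 55.0% and 54.1% of all tested probes were called. In AN, 2, 3 and 5 of the 6 were called, beside 21.7%, 51.7% and 50.6% of all tested probes. These shares show how common a change since P0 was on the arrays, and the 3 AN comparisons share the P0 AN arrays with each other, as the EN comparisons share P0 EN. The 3W arrays shared no slide or scan batch with the P0 or 1W arrays, so age and slide cannot be told apart in those comparisons. Without the third 3W AN array, 5 of the 6 genes were called in AN at 3W, beside 52.2% of all tested probes. Of the steps between later ages, 2 of 6 genes were called from 1W to 3W in EN (Gfra2 fell by 0.50, adjusted p = 0.0308; Ntrk2 rose by 0.36, adjusted p = 0.0123; 27.4% of all tested probes) and 1 of 6 in AN (Gfra1; 29.9% of all tested probes). From 3W to 5W limma called 0 of 6 in EN (0 with an unadjusted p under 0.05; 2.25% of all tested probes) and 0 of 6 in AN (3 with an unadjusted p under 0.05; 3.67% of all tested probes). Without the third 3W AN array the AN steps called 3 of 6 genes from 1W to 3W (Gfra1, Gfra3 and Ret; 32.8% of all tested probes) and 0 of 6 from 3W to 5W (3.12%).

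**Figure D5:**
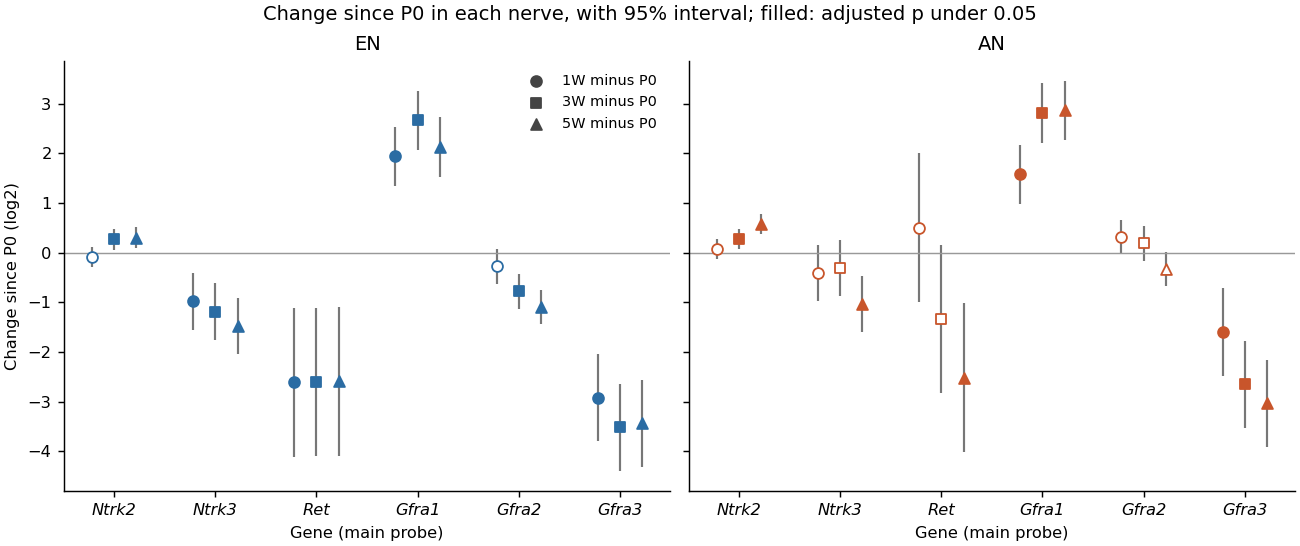
Change since P0 in log2 units of the 6 genes in EN (left) and AN (right), from limma over all 24 arrays. Lines are 95% intervals and filled symbols have an adjusted p under 0.05; in EN the Ret symbols lie at -2.61, -2.61 and -2.59, and in AN at 0.50, -1.34 and -2.52.

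The change of the AN-EN difference itself since P0 was tested as an interaction. limma called 0 of the 6 genes at 1W, 3W and 5W, beside 0.0632%, 0.615% and 1.14% of all tested probes. At an unadjusted p under 0.05 there were 3, 2 and 1 of the 6, counts given without a share over all tested probes. Without the third 3W AN array, Ret was called at 1W, and 0 of 6 at 3W (0.623% of all tested probes). A course that was called in one nerve and not in the other is therefore not shown to differ between the nerves. Single settings did call such a difference for Ret, Gfra2 and the full-length probe of Ntrk2, as named above. The share of all tested probes called in those settings at those ages is not given, so these calls are not read as a shown difference.

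Likeness to other genes was measured as Pearson r over the 24 arrays, among 21508 genes with 1 probe each, as a description of arrays that share nerve and age. Ret was closest to Kcnv1 (0.985), a potassium channel subunit, Stac (0.983) and Gm26614 (0.982). Gfra1 was closest to Vamp8 (0.983), a SNARE protein, Kif13b (0.980), a kinesin motor, and C2cd4d (0.979). Ntrk3 was closest to Ppp2r2b (0.966), a regulatory subunit of protein phosphatase 2A, Prkaa2 (0.961), a catalytic subunit of AMP-activated kinase, and Pfkp (0.956), a phosphofructokinase. Gfra3 was closest to Dpysl5 (0.964), a collapsin response mediator protein, Gm2115 (0.951) and 2900055J20Rik (0.944). Gfra2 was closest to Kcna6, Tyrp1 and Capn5 (0.940 each), and Ntrk2 to Slc39a12 (0.913), a zinc transporter, Csmd1 (0.899) and LOC102643134 (0.891). When the third 3W AN array was left out, the same 3 genes led for Ret, Gfra1 and Ntrk2, while 2 of the 3 were replaced for Ntrk3 and for Gfra2 and 1 for Gfra3. Among the receptor genes, Ntrk3 ran with Gfra3 (r = 0.910), Ret (0.874) and Gfra2 (0.829), Gfra1 ran against Gfra3 (-0.823), and Ntrk2 by its probe of both forms had its highest r with Gfra2 (0.354).

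The ligands of these receptors were measured in the same roots. Of 8 listed ligand genes 5 were tested, and Ntf5, Gdnf and Pspn were too dim. Bdnf, the ligand of TrkB, gave 5.09, 5.18 and 5.58 in 1W EN and 7.47, 8.02 and 7.54 in 1W AN, and was the only ligand called higher in AN over all arrays (2.39 ± 0.61 at 1W, adjusted p = 0.0299). Without the third 3W AN array Ntf3 was called there too (1.95, adjusted p = 0.0249). The difference in Bdnf was 1.65 at 3W (adjusted p = 0.125; 0.64 without the third 3W AN array). Ntf3, the ligand of TrkC, showed the largest changes of the list: it fell from P0 to 5W, with changes of -4.40 in EN and -4.96 in AN (adjusted p = 0.000196 and 6.11e-05), and of -2.92 and -3.46 (-4.88 in AN without the third 3W AN array) to 3W (adjusted p = 0.00623 and 0.0019). Nrtn, the ligand preferred by GFRα2, was lower in AN than in EN at 3W (-0.54, adjusted p = 0.0179; -0.56 and adjusted p = 0.0439 without the third 3W AN array), whereas Gfra2 was higher there. Artn, the ligand of GFRα3, fell in EN by 1.40 to 5W (adjusted p = 0.00531).

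Of 8 co-receptors, alternative receptors and partners, 7 were tested. Ncam1, an adhesion molecule that can also bind GDNF with GFRα1, was the only one called higher in AN, and it was called at every age (0.64, 0.89, 1.88 and 2.12 at P0, 1W, 3W and 5W, adjusted p = 0.0293, 0.00153, 1.11e-07 and 3.34e-08; 1.4e-06 at 3W without the third 3W AN array). It fell since P0 in both nerves, with changes of -3.35 in EN and -1.87 in AN to 5W (adjusted p = 1.69e-12 and 1.58e-09), and its AN-EN difference was larger than at P0 at 3W and 5W by the interaction test (1.24 and 1.48, adjusted p = 0.00473 and 0.00083). Ngfr, the p75 receptor that all neurotrophins bind, did not pass between AN and EN at any age and fell in AN to 5W (-1.43, adjusted p = 0.0179). Of 15 tested adaptors and effectors, limma called 0 between AN and EN at any age (4 with an unadjusted p under 0.05 over the 4 ages; Dok4 was called at 1W without the third 3W AN array), with medians of 0.00 to 0.11. Against P0 the adaptors went in both directions, with 2, 2 and 3 higher and 2, 5 and 7 lower in EN at 1W, 3W and 5W and 1, 2 and 2 higher and 2, 6 and 5 lower in AN. Of all tested probes, 27.1%, 55.0% and 54.1% passed for EN against 21.7%, 51.7% and 50.6% for AN, so that these counts lay near the background. Of 10 inhibitors and ubiquitin ligases, Spry1 alone was called between the nerves over all arrays. It is an antagonist of receptor tyrosine kinase signalling and was lower in AN at 1W (-0.68, adjusted p = 0.0426) and 3W (-0.69, adjusted p = 0.0322; -0.54 and adjusted p = 0.15 without the third 3W AN array). For comparison, the median over all tested probes lay between -0.06 and 0.01 in the 4 AN against EN comparisons.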

How the data were processed

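Per the file headers and the labels, the authors scanned 24 one-colour arrays and deposited, for each, spot intensity values from Agilent Feature Extraction 10.7.1.1. The authors also deposited 1 table of log2 values, quantile normalized per their methods. That table was used here. Each of its columns fitted its own array best, and its direction and log2 scale follow the scanner signal. Positions are those of the scanner files (mm9). Columns mapped to no sample numbered 0.

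A probe was tested where some group had it well above background on each of its 3 arrays, 36409 of 56605 gene probes (64.32%). The 8 group means were fitted with limma 3.58.1 in R 4.3.3 (lmFit, contrasts.fit, eBayes, 16 residual degrees of freedom), and p values were adjusted by Benjamini-Hochberg over all tested probes of each of 17 comparisons. A group with no array above background gives a bound, computed on each dim array from the higher of the probe's own value and the lowest signal well above background. Relative signals of 2 probes were compared by exact permutation over the AN and EN pairs (Python 3.11.15, numpy 2.4.6), a test added after seeing the data. On simulated data for AN against EN at 1W over 36409 probes, 51.0% of log2 changes of 1 and 80.0% of changes of 2 were recovered. The simulated arrays varied independently and few probes were changed. In the data pairs of arrays deviated together and many probes changed, so these shares are not the power of the fit used.

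AN and EN arrays of the same age and number deviated together (correlation 0.107 to 0.646 over 12 pairs, against -0.467 to 0.116 for 24 pairs of different number), so these numbers were taken to pair the arrays, and fits with the pair as a random block were run. A pair shared a slide. The alternatives also covered scanner signal, normexp background correction, scaling, filter, probes, thresholds, slide, scan batch, array weights and leaving out arrays.

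Named are the members, the ligands, listed genes called between AN and EN (up to 3 per list), and the 3 genes most like each member. Coordinate-named transcripts were left out of the likeness search. The members and lists were chosen with earlier results of these data known. No genome, protein table or further sequences were used here. Results for 1 listed gene are not reported here.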

Additional observations from a re-analysis of the deposited data

How the results depend on the processing

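Between AN and EN, 11 receptor tests were called, against 6 with only the groups compared in the fit and 17 with the replicate block that pairs AN and EN arrays (it changed the calls of Ntrk2 and Gfra2 at P0, Ntrk3 and Gfra1 at 1W, Ret at 3W and Ntrk3 at 5W, those of the change since P0 named below, and no other of the main probes). Leaving out 1 array at a time gave 10 to 13 calls between the nerves, 23 to 29 against P0, 1 to 5 for the later steps and 0 to 1 for the change of the AN-EN difference. The later steps (3 calls) had 5 calls without the third 3W AN array, 1 without the first 1W EN array, 1 with an added fold change over 2 and 7 with array weights. The change of the AN-EN difference (0 calls) had 1 call without the third 3W AN array, without the second 3W AN array and without the second 5W AN array each, 1 with normexp, the mean of all probes, only the groups compared, slide or scan batch, 2 with array weights or unadjusted p and fold change over 2, and 4 with the pair block (Ret at 1W and Gfra2 at 1W, 3W and 5W). Ntrk2 reversed against P0 with the mean of its probes (-1.43 and -1.91 in EN and -0.16 and -0.22 in AN at 3W and 5W) and by its full-length probe (-3.13, -4.13, -0.60 and -1.02, where -4.13 is the value as measured on 5W EN arrays not above background and only a bound can be given); the cause was not tested. Over single comparisons, 3788 values kept their side of the threshold, 73 gained a call, 92 lost it and 8 reversed. When 1 array was left out, the relative full-length Ntrk2 signal was 1.84 to 2.13 between the nerves and -2.25 to -1.81, -2.41 to -1.96 and -3.31 to -2.80 at 1W, 3W and 5W, and the relative kinase-form Ntrk3 signal was 0.39 to 0.65 between the nerves and 0.22 to 0.55, -1.0 to -0.48 and -0.90 to -0.68. Counts over all probes moved far more across the settings. For AN against EN they ran from 0 to 1946 at P0 (269 in the fit used) and from 459 to 5129 at 1W (1458). At 3W they ran from 626 to 8591 (2143) and at 5W from 35 to 9470 (2462). The share of all tested probes called with the pair block is not given, so calls gained with it are not set against how many probes gained a call. Moving AN and EN arrays as pairs, a replicate block added after seeing the data, left no call for the relative full-length Ntrk2 signal at -1.98, -2.14 and -3.02 or for the relative kinase-form Ntrk3 signal at -0.77 at 5W, ages at which arrays permuted singly had passed; 3 pairs against 3 cannot go below 0.1 by exact permutation.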
